A study of Mus musculus with 32 samples.

Results

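Liver of prepubertal male and female mice born to control dams was compared across the genes that lie off the X and Y chromosomes. The comparison took the 4 libraries of control males (CM 1, CM 3, CM 4 and CM 5) and the 4 of control females (CF 3, CF 4, CF 5 and CF 6) at 3 weeks of age, 8 of the 32 libraries of the series. Of the 15142 genes listed at that age, 14683 lie off X and Y, 459 lie on X or Y, and 14639 of those off X and Y entered the test. The animals came from a Reg3g-floxed colony on a C57BL/6J background, carried Reg3g fl/+ or Reg3g fl/fl, and had wild-type C57BL/6J sires. No Cre allele was named for them. CM and CF pups came from dams kept on chow before mating and through pregnancy and lactation. Male (MM) and female (MF) pups of dams on a Western-style diet, with 4 libraries each, served as a second set of the same age. Livers were taken before weaning. A further set of CM and CF animals was taken at 8 weeks, after weaning to chow. The labels do not say which pups shared a litter, so p-values measure the spread between these animals, some of which may be from 1 litter.

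Sex differences of the adult mouse liver follow the way the pituitary releases growth hormone. Males release it in pulses and females nearly continuously, and the transcription factor STAT5B carries the pattern to liver genes such as those of the major urinary proteins and the cytochromes P450. The pattern is set at puberty. The liver is also a main organ of cholesterol synthesis, through enzymes whose genes are activated by the transcription factor SREBP2. INSIG proteins hold SREBP in the endoplasmic reticulum when sterols are plentiful.

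Depth was 31550883 to 48333728 counted reads per CM and CF library, and levels are given as CPM, counts scaled to the size of the library. Xist, the RNA that silences one X chromosome, lay at 0.0574 to 0.381 CPM in CM and at 759 to 951 CPM in CF, and the Y-linked Ddx3y lay at 74.9 to 85.4 and at 0 to 0.0878 CPM, so each of the 8 libraries carried the sex of its label. In the second set MF 4 held Ddx3y at 2.28 CPM, against 0 to 0.0859 CPM in the other MF libraries. Summed CPM of 14 hepatocyte genes was 170800 to 193200 in CM and 173300 to 197400 in CF, and their median log2 fold change was -0.02. Several libraries stood apart. CM 4 held the acute phase gene Saa1 at 833 CPM, against 8.93 to 15.9 CPM in the other 7 libraries. CF 5 held 34 interferon response genes at a summed 12160 CPM, against 911.4 to 1222 CPM in the others, and CM 1 held 26 cell cycle genes at 630.6 CPM, against 246.1 to 359.4 CPM. Of the genes tested, 395 lay more than 2-fold above and 332 more than 2-fold below the median of the other 7 libraries in CM 1, 468 and 213 did so in CM 5, 184 and 362 in CM 4, and 623 and 159 in CF 5. In the other 4 libraries these counts were 101 to 173 above and 152 to 272 below. The sample title of CM 1, like that of MM 1, lacks the mark (2) that the other 7 CM and CF titles carry. The labels do not say what the mark means. Levels are bulk values, in which fewer cells of a type and less RNA per cell cannot be told apart.

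Only 2 genes off X and Y passed a false discovery rate (FDR, Benjamini-Hochberg) of 0.05 by edgeR's quasi-likelihood test, both higher in CM and Bcl6 among them, which is 0.0137% of the genes tested. At an unadjusted p under 0.05 there were 1482 genes, 748 higher and 734 lower in CM. The likelihood ratio test, which does not allow for the uncertainty of each gene's spread, called 71 genes (0.485%), 47 higher and 24 lower, and DESeq2 called 132. The quasi-likelihood count was 0 without CF 3, 1 without CM 1 or without CF 4, 4 without CF 6, 6 without CM 4 and 16 without CM 3. It was 10, of which 7 were higher in CM, in the fit blocked on replicate number. The 4 CM libraries all lay above the 4 CF libraries for 420 genes (2.87%) and all below for 418 (2.86%). Among these the fitted difference reached 2-fold for 33 and 36 genes. The median log2 fold change over all genes tested was -6e-04.

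Bcl6, on chromosome 16 from 23965052 to 23988852 of the mm10 build (minus strand), encodes a transcriptional repressor. In adult liver growth hormone lowers its transcript through STAT5, and BCL6 represses a share of the genes that STAT5 activates. Its level was 43.9, 49.9, 21.4 and 32.0 CPM in CM 1, CM 3, CM 4 and CM 5. It was 5.00, 5.29, 6.13 and 10.4 CPM in CF 3, CF 4, CF 5 and CF 6, and values below keep this order of the libraries. The sexes did not overlap, and the CM library with the lowest level, CM 4, was the one with the highest levels of adult male genes. The log2 fold change was 2.46 ± 0.39 (SE; edgeR FDR 0.0205), with a range of 2.28 to 2.75 over 18 alternatives. It passed in 11 of them and was lost without CM 1 (FDR 0.067), CF 3 (FDR 0.152), CF 4 (FDR 0.157) or CF 5 (FDR 0.088), without CF 5 and CM 4 (FDR 0.0572) and without CM 1 and CF 5 (FDR 0.185). With the replicate number as a block the FDR was 0.069.

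The upstream sequence of Bcl6 is shown because it was 1 of the 2 genes called and its RefSeq starts carry the letters that STAT5 dimers bind, TTCNNNGAA, which read the same on both strands. Of the 27025 mouse genes with a promoter window in RefSeq (GRCm38.p6, the same build as mm10), 2582 held these letters (9.55%). Of the 19 genes named by rank below, 17 were matched and 1, Bcl6, held them. Of the 41 genes of adult male liver described below, 33 were matched and 3 held them (9.09%), Bcl6 among them. The first line gives the 250 bases before the outer start, chr16:23988853-23989102, which lie outside the gene. The second gives the 250 bases before an inner start, chr16:23981284-23981533, which lie within an intron. Both are on the minus strand, and capitals mark the matches, 1 in the first and 3 in the second, with the first match beginning 118 and 168 bases before the start.
Bcl6 outer start: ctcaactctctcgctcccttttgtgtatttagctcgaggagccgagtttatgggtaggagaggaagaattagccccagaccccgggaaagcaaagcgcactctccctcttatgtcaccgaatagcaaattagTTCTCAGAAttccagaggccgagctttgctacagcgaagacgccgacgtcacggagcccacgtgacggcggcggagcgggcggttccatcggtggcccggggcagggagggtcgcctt
Bcl6 inner start: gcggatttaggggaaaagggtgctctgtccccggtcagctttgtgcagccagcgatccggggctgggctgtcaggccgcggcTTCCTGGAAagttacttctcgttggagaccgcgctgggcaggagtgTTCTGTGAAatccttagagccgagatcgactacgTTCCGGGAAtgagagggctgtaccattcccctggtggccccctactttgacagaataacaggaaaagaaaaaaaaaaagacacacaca
A match is a run of letters, and binding was not measured.

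The growth hormone feedback genes Cish and Socs2, added as background, gave overlapping values. Cish, a feedback inhibitor that STAT5 induces, was at 3.99, 10.3, 40.3 and 57.4 CPM in CM and at 35.4, 26.7, 33.5 and 40.1 CPM in CF. Its CM libraries spanned the CF range on both sides, with CM 1 and CM 3 below it. Socs2, a second feedback inhibitor, was at 14.8, 53.0, 27.1 and 42.2 CPM in CM and at 46.5, 75.3, 46.8 and 23.5 CPM in CF, again with overlap. The growth hormone receptor gene Ghr had a log2 fold change of 0.17, Stat5b of -0.23 and Igf1, the circulating growth factor that growth hormone drives, of 0.06. Over the 31 genes tested of a growth hormone signalling list, 1 passed (Bcl6), against 0.0137% of all genes, 11 were above and 20 below 0, and the median log2 fold change was -0.07.

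**Figure D1:**
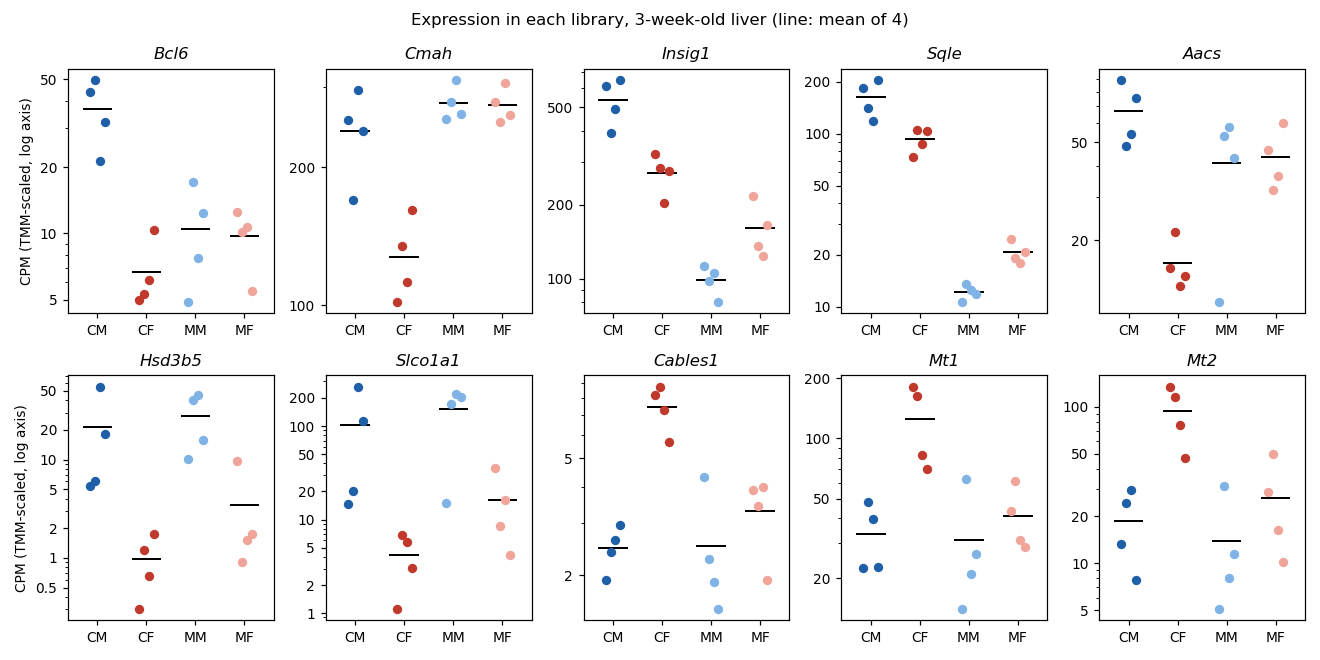
CPM on a log axis for 10 genes in each of the 16 libraries of 3 weeks, 4 for each of CM, CF, MM and MF, with a line at the mean of each group. Bcl6, Cmah, Insig1, Sqle and Aacs separate CM from CF, and Sqle lies at 10.6 to 13.6 CPM in MM and at 17.9 to 24.6 CPM in MF.

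By rank, the genes with the smallest p among those higher in CM with no overlap included Bcl6, Cmah, Aacs, Insig1, Insc, Abcb10, Sqle, Mpp4 and Mvd. Of these 9 only Bcl6 passed the FDR by the quasi-likelihood test, and the values that follow are descriptions of the top of the list. All 9 passed by the likelihood ratio test, as did 0.485% of all genes, and by DESeq2, which called 132 genes. By the same quasi-likelihood test others passed in single alternatives. Aacs did so with the control libraries fitted alone (FDR 0.00933), and Cmah (0.0064), Insc (0.0285), Insig1 (0.0412) and Abcb10 (0.0424) did so without CM 3. Cmah also passed without CF 6 (FDR 0.0188). Cmah, which makes the sialic acid Neu5Gc, was at 254, 170, 296 and 240 CPM in CM and at 101, 135, 112 and 161 CPM in CF (log2 fold change 0.91, FDR 0.0538). Aacs, the acetoacetyl-CoA synthetase that turns ketone bodies into building blocks for lipids, was at 89.8, 48.4, 54.0 and 75.5 CPM in CM and at 15.4, 21.6, 13.0 and 14.4 CPM in CF (2.06, FDR 0.0954). Each CM library held more than the highest CF library, by more than 2-fold for Aacs. Insig1, the sterol-responsive brake on SREBP, was at 611, 393, 494 and 649 CPM in CM and at 322, 282, 203 and 276 CPM in CF (0.99, FDR 0.119). Of the others, Abcb10 is a mitochondrial transporter linked to heme synthesis (0.52), Insc an adaptor that orients the mitotic spindle (1.18) and Mpp4 a scaffold protein at low level, 0.644 to 1.86 CPM over the 8 libraries.

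The 10 at the other end, lower in CM, were Slc23a2, Cables1, Limd2, Wfdc2, Patz1, Zyx, Ccnd3, Arid5a, Sh3d21 and Emp2, with quasi-likelihood FDR from 0.0774 to 0.183. All 10 passed by DESeq2, and all but Patz1 (FDR 0.0565) and Ccnd3 (FDR 0.0617) by the likelihood ratio test. Slc23a2, a vitamin C transporter, was at 36.1, 47.0, 37.6 and 36.8 CPM in CM and at 64.4, 61.9, 50.3 and 59.4 CPM in CF (log2 fold change -0.58). Cables1, which links cyclin-dependent kinases to the tyrosine kinase ABL, was at 1.93, 2.40, 2.64 and 2.96 CPM in CM and at 8.16, 8.74, 7.30 and 5.67 CPM in CF (-1.59). The gap is wide for Cables1 and narrow for Slc23a2, where CM 3 came close to CF 5. Cables1 passed with the control libraries fitted alone (FDR 0.00933) and in the fit blocked on replicate number (FDR 0.0339), and Slc23a2 without CM 3 (FDR 0.0176) or without CF 5 (FDR 0.0347). Differences of the other 8 ran from -0.34 for Ccnd3, a cyclin of the first growth phase of the cell cycle, to -1.11 for Arid5a, an RNA-binding regulator of inflammatory transcripts.

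The metallothioneins, small proteins that bind zinc and copper, were also below the female range in each CM library. Mt1 was at 22.5, 48.4, 39.6 and 22.8 CPM in CM and at 181, 163, 83.0 and 70.1 CPM in CF (log2 fold change -1.90, FDR 0.198). Mt2 was at 13.2, 24.2, 29.2 and 7.78 CPM in CM and at 135, 115, 76.5 and 47.2 CPM in CF (-2.33, FDR 0.222). Neither passed by the quasi-likelihood test, and both passed by the likelihood ratio test. With the replicate number as a block Mt1 passed (-1.83, FDR 0.0371) and Mt2 did not (FDR 0.0696). At 8 weeks, in other animals, both were lower in CM, by log2 fold changes of -2.53 for Mt1 (FDR 0.00651) and -2.76 for Mt2 (FDR 0.00855). The list of 20 metal and oxidative stress genes to which they belong had a median of 0.03, with 12 above and 8 below 0.

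Cholesterol synthesis genes were shifted towards higher values in CM, although none of those reported here passed by the quasi-likelihood test. All 18 enzymes had a log2 fold change above 0, from 0.02 for Ggps1 to 1.38 for Mvd, with a median of 0.56 beside -6e-04 over all genes. In 8 of the 18 the sexes did not overlap, against 2.87% of all genes. By the likelihood ratio test 5 passed (Mvd, Fdps, Fdft1, Sqle and Hsd17b7), against 0.485% of all genes. Without CM 4 the quasi-likelihood test called Sqle (FDR 0.0337), Mvd (FDR 0.0373) and Hsd17b7 (FDR 0.0454). Sqle, the epoxidase that adds oxygen to squalene, was at 185, 141, 119 and 206 CPM in CM and at 73.6, 106, 87.9 and 104 CPM in CF (0.81, FDR 0.132). Mvd, which makes isopentenyl diphosphate, was at 40.0, 26.9, 18.2 and 44.2 CPM in CM and at 13.0, 15.8, 7.28 and 13.8 CPM in CF (1.38, FDR 0.140). Within each sex the libraries did not sit together: CM 1 was the highest of the 8 for 9 of the 18 genes and CM 5 for 8, while CF 5, the library with raised interferon genes, was the lowest for 15. The median was 0.45 without CF 5 and stayed between that and 0.68 with any other of the 8 libraries left out.

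Of the genes that act around the pathway, 18 were tested and 4 had no overlap, all higher in CM, against 2.87% of all genes. These were Insig1, Stard4, Srebf1 and Nr1h3. Stard4, a carrier of cholesterol between membranes, was at 203, 198, 242 and 269 CPM in CM and 158, 180, 119 and 176 CPM in CF (log2 fold change 0.53, FDR 0.222). Srebf1, which encodes the SREBP of fatty acid synthesis, had a difference of 0.64, at 147 to 212 CPM in CM and 107 to 113 CPM in CF. Srebf2 itself overlapped, with 0.12. Nr1h3, which encodes the oxysterol receptor LXR alpha, differed by 0.07. The median of the 18 was -0.002, with 9 above and 9 below 0, the sterol efflux genes Abcg5 (-0.20) and Abcg8 (-0.26) among the latter.

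The letters TCACNCCAC, the core of the sterol regulatory element, were sought on both strands of the same RefSeq promoter windows. They were held by 388 of 27025 genes (1.44%), by 1 of the 15 cholesterol synthesis genes matched and by 0 of 14 matched genes around the pathway. The gene with a match was Hmgcs1, an early enzyme of the pathway, and its 250 bases before the start, chr13:119690101-119690350 on the plus strand, are printed with the match in capitals, which begins 137 bases before the start. They lie outside the gene.
Hmgcs1 start: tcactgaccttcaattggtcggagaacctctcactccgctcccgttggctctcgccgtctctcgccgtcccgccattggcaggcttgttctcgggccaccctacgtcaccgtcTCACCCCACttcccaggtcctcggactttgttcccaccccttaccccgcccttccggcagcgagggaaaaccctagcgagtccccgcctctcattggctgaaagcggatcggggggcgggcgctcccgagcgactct
Windows without a match lack only these exact letters. Hmgcs1 was at 1486, 804, 629 and 1198 CPM in CM and at 637, 765, 400 and 698 CPM in CF (log2 fold change 0.72, FDR 0.410), with CM 4 inside the female range.

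The cholesterol genes gave the opposite order in the other sets of animals. In pups of dams on the Western-style diet all 18 had a fold change below 0, with a median log2 fold change of -0.37 for MM against MF and no overlap for 6 of them, against 1.77% of all genes lower in MM with no overlap and 1.85% higher. None of the 18 passed there by the quasi-likelihood test. Sqle was at 10.6, 13.6, 12.5 and 11.9 CPM in MM and at 24.6, 19.1, 17.9 and 20.8 CPM in MF (-0.76, FDR 0.241), so both sexes lay below the control pups and the males the farther. The difference between the 2 diets in the male to female difference passed for 2 genes off X and Y (0.0137%), Sqle among them (1.57 ± 0.23, FDR 0.0477), with 1288 genes at an unadjusted p under 0.05. For Insig1 it was 1.69 (FDR 0.0887). With the replicate number as a block 0 genes passed. As single libraries were left out the count ranged from 0 to 3, with 0 without CM 5, CF 3, CF 6, MM 1, MM 3, MM 5, MF 3 or MF 6 and 1 without CM 1, CF 4, MM 4, MF 4 or MF 5. Bcl6 had a log2 fold change of 0.11 in MM against MF, and its difference between diets did not pass (2.35, FDR 0.380). Sqle, Insig1 and Bcl6 were named for their CM and CF values, which also enter this test, and that favours a larger difference in controls.

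Between MM and MF 2 genes passed, 0.0137% of those tested, and both were lower in MM. They were Flrt2, a cell adhesion protein (log2 fold change -1.15, FDR 0.0190), and Serpina6, the corticosteroid-binding globulin of blood (-0.65, FDR 0.0430). The count was 0 without MM 4, MM 5, MF 4 or MF 5, 1 without MM 1 or MF 6, and 6 without MF 3. In CM against CF these genes had -0.11 and -0.21. The 420 genes that separated higher in CM had no overlap in the same direction in MM against MF in 10 cases (2.38%) and in the other direction in 12 (2.86%). The 418 lower in CM did so in 11 cases (2.63%) and 5 (1.20%). These shares stand beside 1.85% and 1.77% of all genes.

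At 8 weeks the fold changes of the cholesterol genes again lay below 0. This held for all 18, with a median log2 fold change of -0.58, and 10 passed the FDR, against 552 of 13769 genes higher (4.01%) and 850 lower (6.17%) in CM at that age. Mvd had -1.10 (FDR 0.00139), with 30.6, 26.4, 32.1 and 21.7 CPM in CM 1 to CM 4 and 44.1, 54.0, 77.7 and 61.0 CPM in CF 1 to CF 4 of that age, with no overlap. The difference between the ages in the CM to CF difference was fitted over both sets and passed for 361 of 13504 genes (2.67%). The count was 582 by DESeq2, 658 with the control libraries fitted alone and 171 without CM 1 and CF 5. It passed for 11 of the 18 cholesterol genes, all with a lower male to female ratio at 8 weeks, led by Mvd (-2.46, FDR 7.42e-05), Hmgcs1 (-1.93) and Lss (-1.89), and for Insig1 (-1.91) and Srebf1 (-1.70) beside them. Bcl6 had -0.07 at 8 weeks, where its libraries ranged from 11.1 to 31.7 CPM in CM and from 6.08 to 41.5 CPM in CF, and its difference between ages was -2.52 (FDR 0.0363). The library kit changed between the ages, and the effect of age cannot be told apart from it. Bcl6, Mvd and Insig1 were named for their 3-week values, which also enter this test, and that favours a larger difference at 3 weeks.

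**Figure D2:**
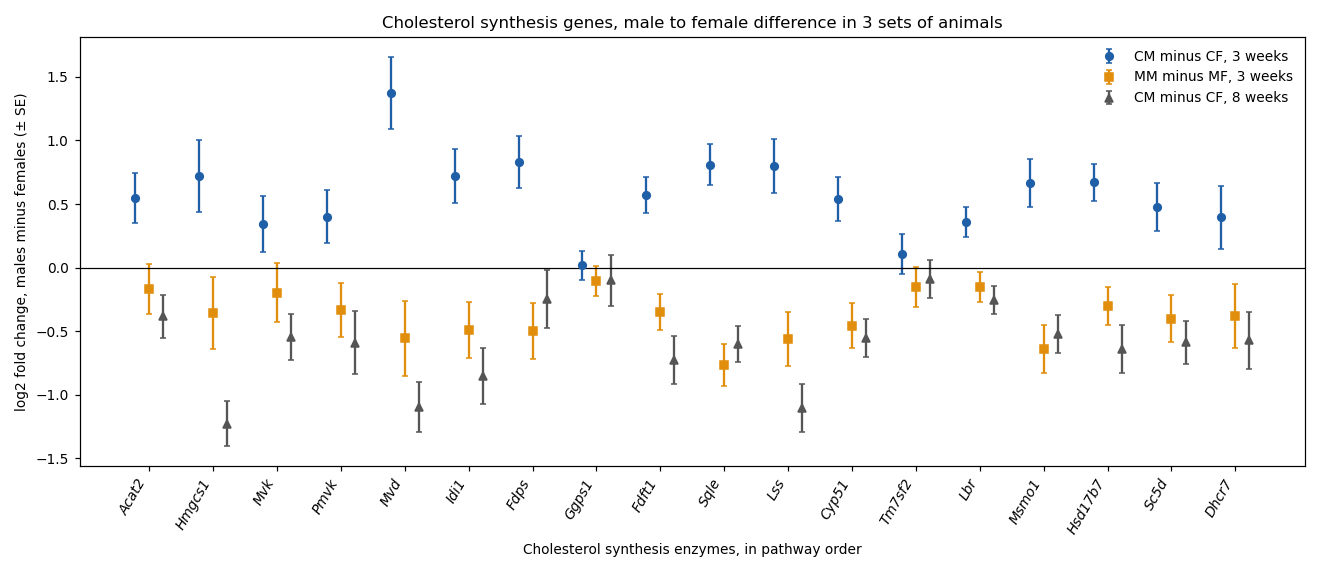
Log2 fold change with its SE for 18 cholesterol synthesis genes in pathway order, males minus females, in CM and CF at 3 weeks, MM and MF at 3 weeks and CM and CF at 8 weeks. The first set lies above 0 for all 18 genes and the other 2 sets below 0 for all 18.

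Fatty acid synthesis genes also lay above 0 in CM, mainly through 1 library, and none passed by the quasi-likelihood test, while Aacs and Acsl3 passed by the likelihood ratio test (0.485% of all genes). All 23 tested had a log2 fold change above 0, with a median of 0.47, and 3 had no overlap, against 2.87% of all genes. CM 1 was the highest of the 8 libraries for 21 of the 23, and without CM 1 the median was 0.187. Fasn, the fatty acid synthase, was at 2305, 512, 1055 and 841 CPM in CM and at 446, 597, 408 and 382 CPM in CF (1.36, FDR 0.313). Scd1, which makes monounsaturated fatty acids, was at 22707, 3275, 10810 and 8201 CPM in CM and at 7793, 7256, 7853 and 4640 CPM in CF (0.71). CM 1 lay highest and CM 3 inside or below the female range for both. Pnpla3, a lipid droplet protein under insulin and carbohydrate control, was at 13.7 CPM in CM 1 and at 1.03 to 2.50 CPM in the other CM libraries. CM 1 was also the library with the raised cell cycle genes, and the part of cell division in these values was not tested. In MM against MF 18 of the 23 lay below 0, with a median of -0.33, and at 8 weeks 16 did, with a median of -0.14.

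Genes that mark the adult male liver were mostly above 0 in CM, with 2 of the 4 males carrying most of it. Of 41 tested, 40 lay above 0, the median was 1.09, 1 passed (Bcl6), 16 passed by the likelihood ratio test and 9 had no overlap with higher values in CM. Over all genes these shares were 0.0137%, 0.485% and 2.87%. At 8 weeks Bcl6 had -0.07, with overlap, and 33 of the 41 passed as higher in CM, against 4.01% of all genes. With the control libraries fitted alone, 35 of the 41 had enough reads, and their median was 0.839. Since a gene could enter the test through male libraries alone, which favours values above 0, the counts, shares and median of this list describe the genes tested only. CM 4 was the highest of the 8 libraries for 31 of the 41 and CM 5 for 7, while CM 1 and CM 3 were the highest for 0 and 2. The median deviation of the list from the mean of the 8 libraries was 1.32 and 0.83 on the log2 scale in CM 4 and CM 5, -0.22 and -0.13 in CM 1 and CM 3, and -0.70 to -0.38 in CF. Without CM 4 the median fold change was 0.67. CM 4 was also the library with raised Saa1, and whether the acute phase plays a part was not tested. The median for MM against MF was 0.62, with 35 of 41 above 0.

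Hsd3b5, a steroid dehydrogenase of adult male liver, was at 5.35, 6.09, 55.2 and 18.1 CPM in CM and at 0.302, 1.20, 0.649 and 1.76 CPM in CF (log2 fold change 4.43 ± 0.96, FDR 0.160). Slco1a1, an organic anion transporter, was at 14.7, 20.5, 264 and 113 CPM in CM and at 1.11, 6.86, 5.80 and 3.04 CPM in CF (4.59 ± 1.06, FDR 0.183). For both, all males lay above all females, with CM 4 highest and CM 1 lowest of the males. Both gave a like order in MM and MF, with 10.2 to 45.0 and 0.910 to 9.70 CPM for Hsd3b5. Mup20, one of the major urinary proteins that carry pheromones in male urine, was at 10.8, 20.3, 345 and 82.6 CPM in CM and at 7.69, 15.1, 12.6 and 5.76 CPM in CF, with CM 1 inside the female range, whereas at 8 weeks it was at 2437 to 4453 CPM in CM. Cyp4a12a, a male-specific fatty acid hydroxylase, was at 0.621, 0.146, 40.9 and 2.79 CPM in CM and at 0.0671 to 0.205 CPM in CF. Mup, Cyp4a, Cyp2, Cyp3a, Gst, Sult and Serpina1 genes have close copies, and since reads mapped to several places were not counted, their values are uncertain.

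Genes that mark the adult female liver lay mostly below 0, with CM 4 again the farthest. Of 51 tested, 41 lay below 0, the median log2 fold change was -0.49 and none passed by the quasi-likelihood or the likelihood ratio test. In CM 4, 36 of the 51 had their lowest value, and the median was -0.278 without it. Sult2a1, a sulfotransferase of bile acids and steroids, was at 615, 546, 13.9 and 183 CPM in CM and at 1080, 776, 660 and 854 CPM in CF (-1.31, FDR 0.649). Cyp2b9, a cytochrome P450, was at 447, 501, 79.0 and 367 CPM in CM and at 764, 639, 558 and 650 CPM in CF (-0.91). Both were present in every male pup, and at 8 weeks were listed at 0 to 0.0819 CPM in CM while Cyp2b9 was at 466 to 666 CPM in CF. Cux2, a female-specific repressor of male genes, was at 3.34, 32.7, 0.594 and 13.8 CPM in CM and at 41.0, 68.7, 18.4 and 40.4 CPM in CF, with CM 3 inside the female range. In all, 4 genes of the list had no overlap with lower values in CM, against 2.86% of all genes. Cyp2c38 had none in the other direction (2.87% of all genes), at 3.80 to 15.0 CPM in CM and 1.70 to 2.52 CPM in CF (1.96). Cyp2c38 was lower in CM at 8 weeks (-1.24, FDR 0.000673).

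**Figure D3:**
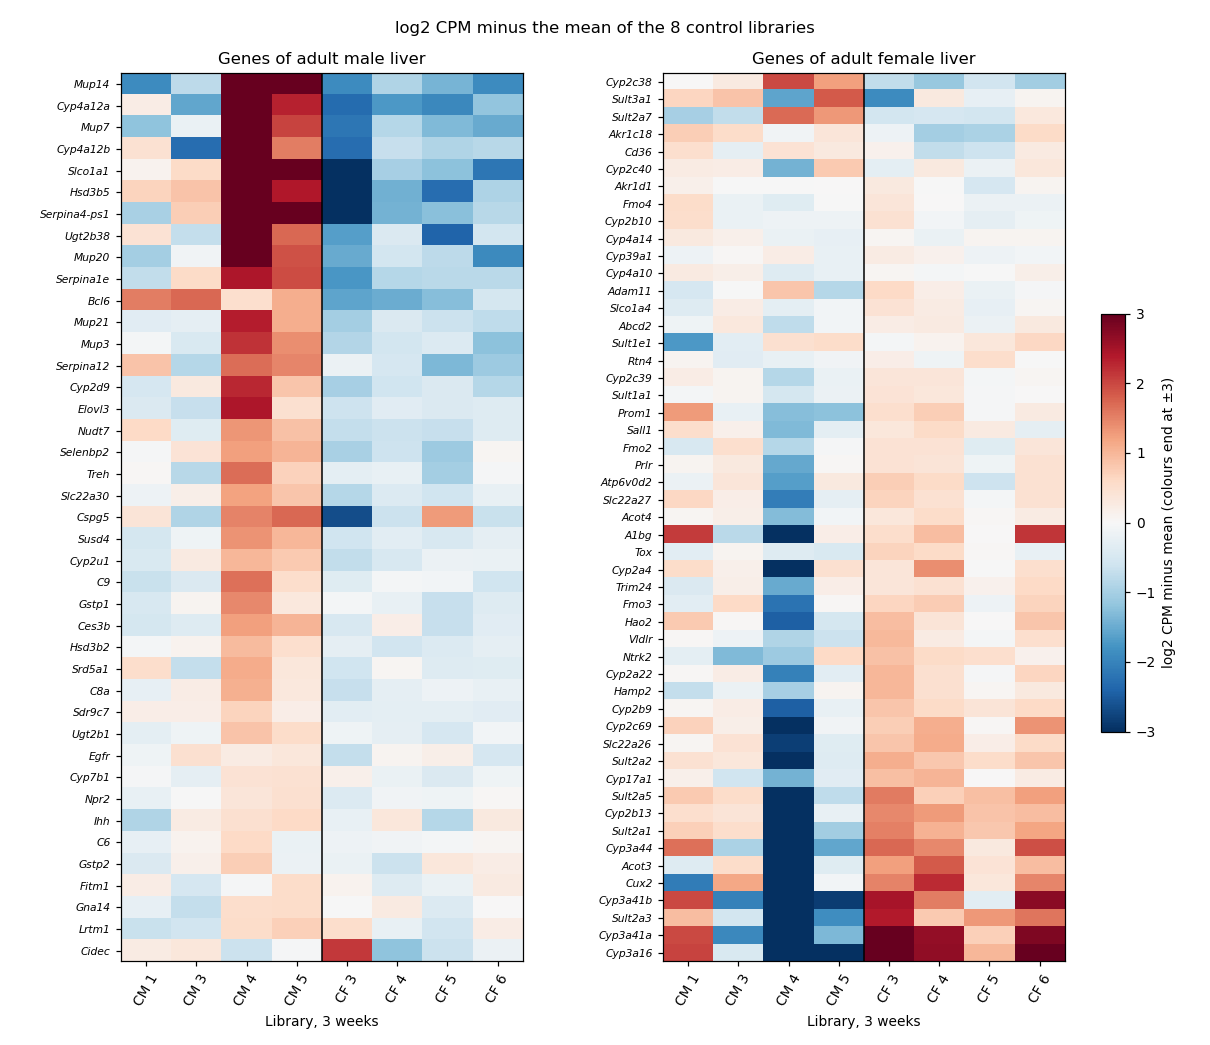
Log2 CPM minus the mean of the 8 libraries for the 41 genes of adult male liver and 51 of adult female liver, with genes in rows ordered by their fold change and libraries in columns, CM left and CF right of the line. CM 4 and then CM 5 carry most of the male values, and CM 1 and CM 3 lie close to the females.

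The genes that differ most in adults were taken from the 8-week libraries alone, at an FDR under 0.05 and at least 4-fold. Of 96 higher in CM at 8 weeks, 76 were tested at 3 weeks and 69 lay above 0 there, with a median log2 fold change of 0.84. Their median at 8 weeks was 3.01. Of 110 lower in CM, 108 were tested and 89 lay below 0, with medians of -0.58 at 3 weeks and -3.21 at 8 weeks. The other 20 and 2 genes are not listed in the 3-week table. A gene could enter the test through male libraries alone, which favours values above 0 among genes of male liver, so here too the counts and medians describe the genes tested only. With the control libraries fitted alone, 57 and 104 genes were tested and the medians were 0.704 and -0.565. Without CM 4 the 3-week medians were 0.47 and -0.31. In MM against MF they were 0.65 and -0.53. In the other direction, 50 of the 411 genes that separated higher in CM at 3 weeks and were tested at 8 weeks passed as higher at 8 weeks (12.2%), and 19 as lower (4.62%). Of the 398 that separated lower, 58 passed as lower (14.6%) and 4 as higher (1.01%). Over all genes tested at both ages these shares were 3.90% higher and 6.28% lower.

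**Figure D4:**
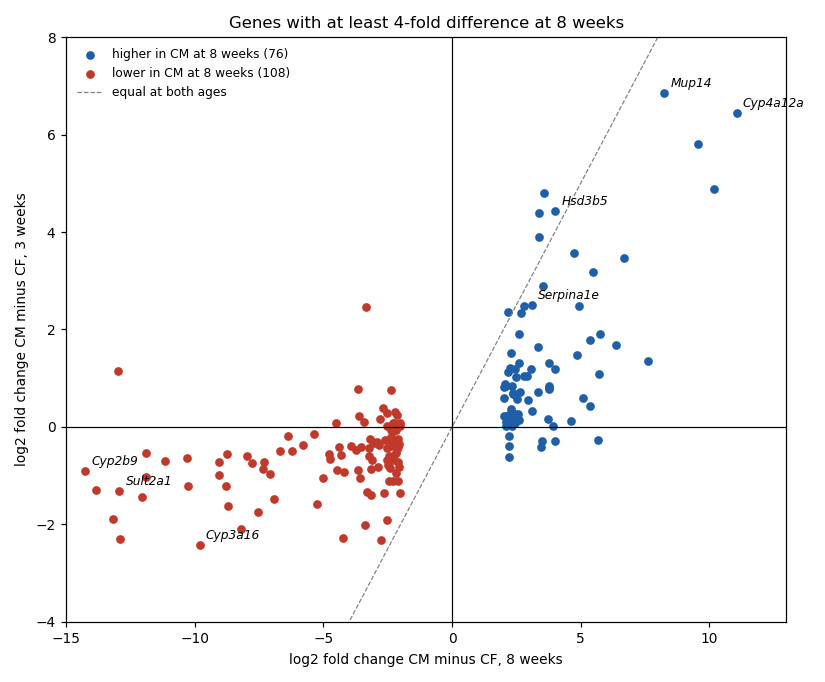
Log2 fold change of CM minus CF at 8 weeks (x axis) and at 3 weeks (y axis) for the genes that passed at 8 weeks with at least 4-fold difference and were tested at 3 weeks, 76 higher in CM in blue and 108 lower in red, with a dashed line of equal values. Most points lie between the dashed line and the horizontal axis at 0.

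The other gene lists had medians close to 0. These were 0.03 for 28 genes of triglycerides and lipid droplets, 0.02 for 30 of fatty acid oxidation and ketogenesis, 0.03 for 24 of bile acid synthesis and transport, 0.10 for 24 of sex steroid receptors and metabolism, 0.02 for 20 of H3K9 methylation, 0.03 for 21 of the fed and fasted state, 0.09 for 20 of the circadian clock and 0.07 for 25 of the acute phase and complement. No gene of these 8 lists passed by the quasi-likelihood test. By the likelihood ratio test 1 of bile acid synthesis and transport and 2 of the steroid list passed, all higher in CM, and 0 of the other 6 lists. Over all genes the share was 0.485%. Esr1, the estrogen receptor, was at 61.4, 39.1, 26.2 and 51.2 CPM in CM and at 45.4, 43.0, 25.6 and 54.9 CPM in CF (log2 fold change 0.08), with full overlap. The 2 of the steroid list were Hsd3b5 and Hsd3b2, with 4.43 and 0.81. The 8 genes of fetal liver had a median of -0.20, and the 26 of the cell cycle 0.23.

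Interferon response genes at 3 weeks were far higher in 1 female, CF 5, than in the other libraries. All 34 lay below 0 in CM, with a median log2 fold change of -1.27. None passed by the quasi-likelihood test. By the likelihood ratio test 3 passed as lower, against 0.485% of all genes in either direction. In 4 the sexes did not overlap, all lower in CM, against 2.86% of all genes. Without CF 5 the median was -0.165. In MM against MF 33 of the 34 lay above 0, with a median of 0.27 and none passing by the quasi-likelihood test, and at 8 weeks all 34 lay below 0 in CM, with a median of -0.64, and 16 passed as lower, against 6.17% of all genes at that age. Irf1, a transcription factor induced by interferon, was at 23.2, 32.8, 32.4 and 36.0 CPM in CM, at 36.3, 40.4 and 37.7 CPM in CF 3, CF 4 and CF 6, and at 245 CPM in CF 5. Gbp2, an interferon-induced GTPase, was at 389 CPM in CF 5 and at 6.95 to 12.5 CPM elsewhere. Markers of blood and immune cells were also high in CF 5. The 11 T and NK cell genes summed to 19.2 CPM in CF 5 and to 7.36 to 10.7 CPM in the other 7 libraries, and 10 of the 11 lay below 0 in CM. CF 5 was the highest of the 8 libraries for macrophage (688.9 CPM), neutrophil (6.43 CPM) and red cell precursor markers (403.1 CPM) as well, and CF 3 for B cell markers, ahead of CF 5 (29.1 and 22.1 CPM). Below 0 in CM lay 11 of 13 macrophage, 8 of 9 B cell, 4 of 4 neutrophil and 8 of 8 red cell precursor genes. The summed ranges overlapped between CM and CF for macrophage (443.4 to 633.7 and 462.9 to 688.9 CPM), B cell (10.7 to 15.0 and 14.3 to 29.1), neutrophil (1.39 to 3.70 and 2.13 to 6.43), red cell precursor (141.2 to 325.8 and 225.5 to 403.1), endothelial and stellate (981 to 1330 and 934 to 1273), bile duct (120.3 to 130.8 and 121.4 to 168.2) and pancreas markers (4.98 to 6.37 and 4.45 to 7.21). The part of these cells in the values above was not tested.

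**Figure D5:**
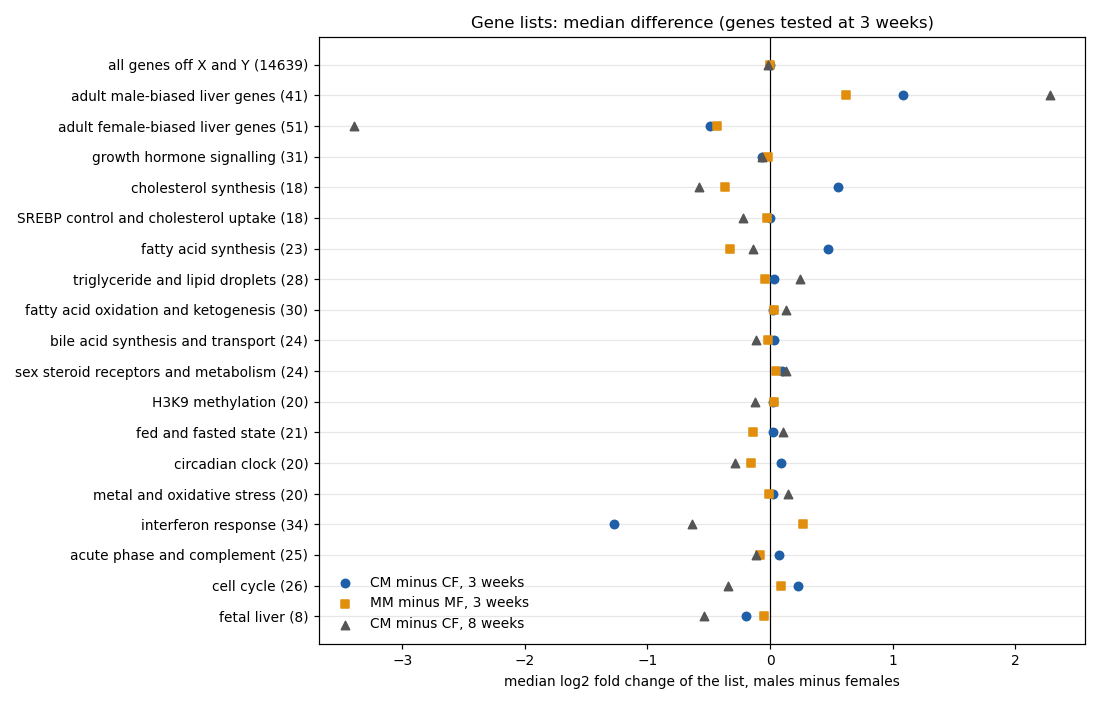
Median log2 fold change of each gene list, males minus females, with the number of genes tested in brackets, for CM and CF at 3 weeks, MM and MF at 3 weeks and CM and CF at 8 weeks. Cholesterol and fatty acid synthesis lie above 0 only in the first set (0.56 and 0.47), and the adult male and female lists lie on the same side of 0 in all 3.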

How the data were processed

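Liver mRNA of 32 mice was sequenced, 16 at each age, in 4 groups of 4 libraries. The authors aligned reads to mm10 with STAR, dropped reads that mapped to several places and assigned the rest to genes with featureCounts, and the deposited tables hold raw counts per gene and library, gene length (not used in the test), and columns of the authors' own edgeR comparisons (fold change, log2 fold change, log2 CPM, p-value and FDR), which were not used here. Tool versions were not given in the sources used here. The library kit was KAPA mRNA HyperPrep at 3 weeks and Illumina Stranded mRNA Prep at 8 weeks, and 3-week and 8-week tables were tested separately, except that the difference between ages came from 1 fit of the genes in both.

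Counts were tested in R 4.3.3 with edgeR 4.0.16 (TMM scaling, quasi-likelihood F test, limma 3.58.1) over the 16 libraries of an age with a group mean each, with genes kept at 15 or more reads in at least 4 libraries and an FDR threshold of 0.05 over all genes kept, X and Y included. Genes on X and Y were then set aside. CPM are counts scaled to library size with TMM factors, and a comparison of levels is made within a gene only. Alternatives were the likelihood ratio test, DESeq2 1.42.0, RLE and total count scaling, no read filter, a filter of 1 CPM, the control libraries alone, the replicate number as a block, and libraries left out singly or in 2 pairs. The fitting steps were tested on simulated data. Figures were drawn with Python 3.11.15, pandas 2.3.3 and matplotlib 3.10.9. No pair of CM or of CF libraries agreed within sampling noise, so each counted as 1 sample. Replicate numbers do not mark a stated litter or day, and were not taken as pairs. Deviations of same-numbered CM and CF libraries correlated at 0.00482, 0.126 and 0.326, and those of MM and MF at 0.0832, 0.61 and 0.323. Across the diets all lay below 0, from -0.0407 to -0.482 for CM and MF and from -0.0884 to -0.289 for MM and CF. The block gave each number 1 effect over both diets. It therefore does not test pairing within a diet, which was not tested.

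The genes named are those called in CM against CF, the 10 higher and 10 lower with the smallest p among genes without overlap, with mean CPM of at least 1 in the higher group and a symbol other than a Gm number or one ending in Rik, up to 4 of each gene list by p, the lipid, male-biased and growth hormone lists gene by gene where useful, the 10 and 10 with the largest 8-week fold change, markers of libraries that stood apart, and Esr1. Cish, Socs2 and the genes called in MM against MF were added as background. The comparison, gene lists and tests were chosen with earlier results of these data known, so no count over a list is independent evidence. Some genes are not reported here and were left out of the lists and figures, while counts over all genes include them. Promoter windows came from RefSeq and gene annotation from GENCODE.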

Additional observations from a re-analysis of the deposited data

Results flagged for a closer look

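Some libraries lay far from the other 3 of their group by Dixon's criterion. It was applied to 174 groups of named genes and lists and marked 7 (4.02%), where chance marks about 1 in 20. In CF 5 these were the interferon response list, whose median deviation from the mean of the 8 libraries was 2.29 on the log2 scale, the B cell markers, at 0.50, and the adult female liver list, the lowest of CF at -0.0043. In CF 6 it was Abca1, a cholesterol exporter, at 318 CPM. In CM they were Slc23a2 in CM 3 at 47.0 CPM, the sterol oxidase Msmo1 in CM 5 at 406 CPM, and the fatty acid oxidation list in CM 1 with a median deviation of 0.21.

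The male to female difference of some named genes differed between sets of animals in the test of that difference by edgeR. Between the diets at 3 weeks it was larger in controls for Sqle, by 1.57 on the log2 scale (FDR 0.0477). Between the ages in controls it was lower at 8 weeks than at 3 weeks for Bcl6 (-2.52), Insig1 (-1.91), Sqle (-1.40), Mvd (-2.46), Hmgcs1 (-1.93), Lss (-1.89), Idi1 (-1.56), Hsd17b7 (-1.29), Fdft1 (-1.28), Msmo1 (-1.17), Cyp51 (-1.08), Sc5d (-1.05) and Lbr (-0.60). The same direction was measured for Srebf1 (-1.70), for Acaca, the acetyl-CoA carboxylase that starts fatty acid synthesis (-1.28), for Acsl3, a fatty acyl-CoA ligase (-2.11), for Cyp2c38 (-3.18), for the steroid hydroxylase Cyp17a1 (-3.97), for the transcription factor Tox (-1.33) and for Emp2, a membrane protein (-0.70). Ccnd3 was the exception, with 0.58. Their FDR lay between 8.08e-06 for Acsl3 and 0.0430 for Emp2. Age cannot be told apart from the library kit. Many of these genes were named for their 3-week CM and CF values. The same values enter both tests, and such a choice favours a larger difference in that set than in the others.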

How the results depend on the processing

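The count of 2 genes called in CM against CF was 71 by the likelihood ratio test, 132 by DESeq2, 10 with the replicate number as a block, 1 without CF 5 and CM 4, 1 without CM 1 and CF 5, and 0 to 16 as single libraries were left out. For MM against MF the count of 2 was 23, 46 and 1 by the likelihood ratio test, DESeq2 and total count scaling, and 0 to 6 with single libraries left out. For the difference between the diets the count of 2 was 17, 34 and 1 by the same settings, 0 with the block, 0 without CM 1 and CF 5, and 0 to 3 with single libraries left out. The 1402 genes called at 8 weeks became 1746 by the likelihood ratio test, 1847 by DESeq2, 1955 with control libraries alone and 1213 with the block. With single libraries left out they became 911 to 1230, the lowest without CM 2. The 361 genes that differed between the ages became 582 by DESeq2, 658 with control libraries alone and 171 without CM 1 and CF 5. The 838 genes without overlap were 844 and 808 under RLE and total count scaling. The median of the interferon list was -0.032 without CF 5 and CM 4, -0.252 without CM 1 and CF 5, and -1.51 to -0.165 (without CF 5) with single libraries left out, with no change of sign. The median of fatty acid synthesis was 0.275 with the block, 0.157 without CM 1 and CF 5, and 0.187 (without CM 1) to 0.629 with single libraries left out. Signs turned for medians near 0. The SREBP control list had -0.085 with the block, and -0.068 (without CM 1) to 0.050 with single libraries left out, above 0 without CM 4, CM 5, CF 4 or CF 6. The metal list had -0.023 without CM 1 and CF 5, and -0.020 (without CF 5) to 0.039. Fits on fewer libraries also lose samples or shared spread, and the cause of the changes was not tested. The medians of the male, female and cholesterol lists kept their sign under every alternative run, with 0.669 to 1.298, -0.659 to -0.278 and 0.445 to 0.677 as single libraries were left out. The female list had -0.785 with the block, and the cholesterol list 0.368 without CM 1 and CF 5. With 4 libraries a group, and animals that may share litters, a gene that missed the threshold is not shown to be alike in the sexes.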
